A study of Mus musculus with 13 samples.

Results

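Epithelial cells are joined by tight junctions and adherens junctions, and the genes described here encode their core proteins. They are 9 genes, Cldn3, Cldn4, Cldn7, Cldn8, Cldn10, Tjp1, Ocln, F11r and Cdh1, taken by symbol from the 17956 genes of the deposited normalised table for mouse submandibular gland. The rule used the symbols and no measured value. All 9 passed the filter on low counts that left 14727 genes for testing.

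The study measured RNA from submandibular glands, which are paired salivary glands, of mice labelled as strain CH3 and 1 year old. In the PreIR-NTN group (5 libraries), Cere-120 had been injected 10 days before the glands were irradiated. Cere-120 is AAV2-NRTN, an adeno-associated virus vector that carries neurturin, a growth factor for neurons. In the PreIR-GFP group (5 libraries), AAV2-GFP, the same type of vector with a fluorescent protein, had been given at the same time before irradiation. The NonIR group (3 libraries) was not irradiated, and whether these mice received a vector cannot be read from the labels. Tissue was taken after 300 days. PreIR-NTN against PreIR-GFP compares the vectors' cargo in irradiated glands, whereas each comparison with NonIR joins irradiation and vector, which cannot be told apart. The labels state neither the promoter that drives the cargo nor the radiation dose, and they do not tie each library to a separate animal, so p-values measure the spread between these libraries. The 3 comparisons share libraries, and their values are given side by side.

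Tight junctions seal the space between neighbouring epithelial cells and set which ions and how much water pass between them. Claudins form the strands: some act mainly as a barrier, and others form pores for ions. Occludin (Ocln) and junctional adhesion molecule A (F11r) are further membrane proteins of the junction, the scaffold ZO-1 (Tjp1) ties them to the actin cytoskeleton, and E-cadherin (Cdh1) holds the adherens junction just below. In salivary glands the junctions separate saliva in the lumen from the tissue fluid and leave a path between acinar cells for sodium and water.

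Levels are given in CPM, TMM-scaled counts in a library of fixed size. The libraries held 9724301 to 16771003 reads over genes, and the scaling factors ran from 0.768 to 1.42, the highest in PreIR-GFP 1. That library was also lowest in the summed level of acinar markers (113442 CPM) and of granular convoluted tubule markers (14478 CPM). The epithelial label fitted the data: Epcam averaged 195 ± 22.7 CPM in PreIR-NTN, 178 ± 11.4 CPM in PreIR-GFP and 167 ± 16.6 CPM in NonIR libraries. The summed acinar markers lay at 191753 to 312968 CPM in PreIR-NTN, 113442 to 266293 CPM in PreIR-GFP and 253709 to 299473 CPM in NonIR. Much of that sum is Smgc, which averaged 78662 CPM in PreIR-NTN, 39418 CPM in PreIR-GFP and 119139 CPM in NonIR, and the other 11 acinar markers averaged 165422 CPM in PreIR-NTN, 170743 CPM in PreIR-GFP and 155806 CPM in NonIR. Granular convoluted tubule markers summed to 25649 to 45819.9 CPM in PreIR-NTN, 14478 to 50810.0 CPM in PreIR-GFP and 40200.4 to 52859.9 CPM in NonIR, and duct markers to 1026 to 1238 CPM in PreIR-NTN, 1050 to 1143 CPM in PreIR-GFP and 1117 to 1307 CPM in NonIR. Fibroblast markers summed to 152 to 203 CPM in PreIR-NTN, 247 to 393 CPM in PreIR-GFP and 240.3 to 287 CPM in NonIR, and macrophage markers to 65.8 to 104 CPM in PreIR-NTN, 106 to 196 CPM in PreIR-GFP and 97.2 to 112 CPM in NonIR. In both the fibroblast and the macrophage list, all PreIR-NTN libraries lay below all PreIR-GFP libraries, for macrophage markers by a small margin. Among single genes tested, 1.11% had no overlap between these groups. Much of the fibroblast sum is Dcn, which averaged 119 CPM of 178 CPM in PreIR-NTN and 192 CPM of 292 CPM in PreIR-GFP. Of the tested markers in 10 cell type lists, 1 passed the edgeR test, the fibroblast gene Dpt. Dpt was lower in PreIR-NTN against PreIR-GFP glands (edgeR adjusted p = 0.0173), as 1 of 8 fibroblast markers beside 0.0204% of all genes. The DESeq2 test called 3 of 8 fibroblast and 2 of 8 macrophage markers in PreIR-NTN against PreIR-GFP, where it called 38 of all 14727 genes. It called 2 of 8 fibroblast markers in PreIR-NTN against NonIR (31 of all genes) and 1 endothelial marker in PreIR-GFP against NonIR (73 of all genes). With no filter, edgeR called 3 fibroblast markers in PreIR-NTN against PreIR-GFP (20 of all genes) and 1 in PreIR-NTN against NonIR. It also called 1 endothelial marker in PreIR-GFP against NonIR (25 of all genes). Counts over all genes by setting stand in the last section. Without PreIR-GFP 4, 1 macrophage marker was also called in PreIR-NTN against PreIR-GFP. The fibroblast count in PreIR-NTN against PreIR-GFP was 0 of 8 with each of limma-voom, the 2 vector groups alone, the replicate block and library totals, and also when any 1 of PreIR-NTN 1, PreIR-NTN 2, PreIR-NTN 4, PreIR-NTN 5, PreIR-GFP 1 and PreIR-GFP 5 was left out. The entries for the vector and for GFP had 0 reads in all 13 libraries. The mouse gene Nrtn had 56 to 161 reads in PreIR-NTN, 37 to 140 in PreIR-GFP and 34 to 87 in NonIR libraries, not scaled for library size. These reads did not separate the vector groups, and whether reads of the vector's neurturin fall on this entry was not tested.

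All 9 junction genes were expressed in every library, at very different levels. Per kilobase of exon, Cldn10 stood far above the others at 333 ± 68.1 CPM per kilobase (mean ± SD over 13 libraries), above 99.6% of tested genes. F11r (54.7 ± 6.30), Cldn8 (53.9 ± 7.48) and Cldn3 (49.6 ± 15.0 CPM per kilobase) came next and did not differ beyond their spread. Cldn4 (33.8 ± 9.47) and Cldn7 (25.9 ± 6.31) also overlapped, as did Ocln (16.1 ± 1.52) and Cdh1 (14.9 ± 1.28 CPM per kilobase). Tjp1 was lowest at 8.22 ± 1.295 CPM per kilobase, above 77.5% of tested genes. The lowest Cldn7 library (19.1) was above the highest Ocln library (18.6 CPM per kilobase), whereas Cldn4 reached down to 15.1 in PreIR-GFP 3. Cldn3 and Cldn4 overlapped in their spread as well.

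The genes also differed in how far libraries spread. The highest library exceeded the lowest 3.17-fold for Cldn4, 2.89-fold for Cldn3, 2.13-fold for Cldn10 and 2.03-fold for Cldn7. For Ocln it was 1.4-fold and for Cdh1 1.35-fold, the smallest of the 9 with TMM. Across 6763 genes of at least 10 CPM, not matched in level to the junction genes (means 50.5 to 862 CPM), the median was 1.77-fold. Cldn3, Cldn4, Cldn7 and Cldn10 thus varied more than the median gene, and Cldn8, Tjp1, F11r, Ocln and Cdh1 varied less, with TMM, DESeq2 size factors and upper-quartile scaling alike. Library totals changed this order: Cldn10 then had the smallest spread at 1.496-fold, Cldn4 the largest at 5.01-fold, and Ocln spread 1.97-fold, Cdh1 2.13-fold and Tjp1 2.46-fold. The median gene spread 2.26-fold with library totals, so that Tjp1 lay above it and Cldn7 (1.95-fold) and Cldn10 below it.

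The 5 claudins among these genes made up nearly the whole claudin pool. Of 25 claudin genes in the count table, 5 had 0 reads in all libraries and 10 passed the filter. Cldn3, Cldn4, Cldn7, Cldn8 and Cldn10 together held 97.2% to 98.4% of claudin reads. Counted per exon length, Cldn10 alone held 63.4% ± 5.11 in PreIR-NTN, 68.8% ± 6.33 in PreIR-GFP and 64.9% ± 0.953 in NonIR libraries (SD, n = 5, 5 and 3). Cldn3 held 11.9% ± 2.21 in PreIR-NTN, 8.24% ± 0.729 in PreIR-GFP and 9.21% ± 2.85 in NonIR libraries. The shares were not tested between groups, and a rise in one share lowers the others.

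**Figure D1:**
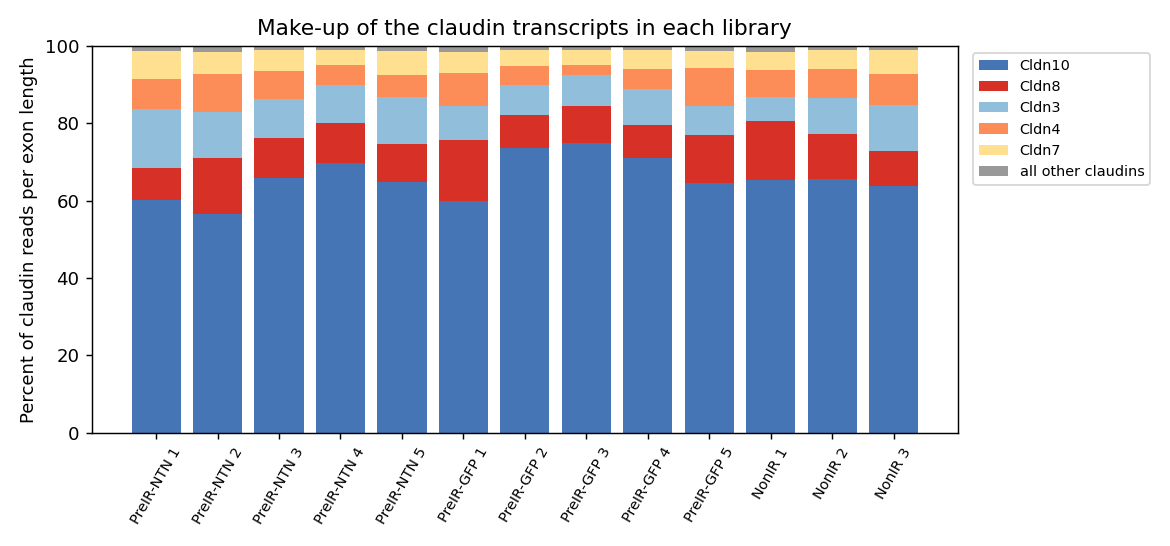
Share of each claudin in the claudin reads per exon length (y axis, percent) in each of the 13 libraries (x axis), PreIR-NTN first, then PreIR-GFP and NonIR; the grey segment holds all claudins other than Cldn3, Cldn4, Cldn7, Cldn8 and Cldn10. Cldn10 is the largest segment in every library, between 56.6% and 74.8%, and the grey segment is thin throughout.

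None of the 9 genes passed the test between groups. By edgeR's quasi-likelihood test with Benjamini-Hochberg adjustment over all 14727 genes, 0 of 9 were called in PreIR-GFP against NonIR, where 0.034% of all genes were called. In PreIR-NTN against PreIR-GFP the count was 0 of 9 beside 0.0204% of all genes, and in PreIR-NTN against NonIR it was 0 of 9 beside 0.0136%. At an unadjusted p under 0.05 the counts were 0, 1 (Cldn3) and 1 (Ocln) of 9, beside 8.51%, 5.79% and 7.65% of all genes in the same comparisons. DESeq2, limma-voom and limma on the deposited values also called 0 of 9 in each comparison. The libraries of the compared groups did not overlap for 1 of 9 genes in PreIR-GFP against NonIR, 0 in PreIR-NTN against PreIR-GFP and 1 in PreIR-NTN against NonIR, beside 5.14%, 1.11% and 6.52% of all genes. With so few calls over all genes, the absence of calls is no result particular to the junction genes.

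The size of the changes was bounded only gene by gene, by intervals of the main edgeR fit. In PreIR-GFP against NonIR, 8 of 9 log2 fold changes were below 0 (5 of 9 with library totals, which put the median of all genes at 0.13), with a median of −0.18 beside 0.019 over all genes tested. In the same comparison and with TMM, 7 of 9 granular convoluted tubule markers (median −0.73) and 10 of 11 duct markers (median −0.14) were below 0, and 10 of 12 acinar markers were above 0 (median 0.17). Their part in the junction gene values was not tested. In PreIR-NTN against PreIR-GFP, 5 were above and 4 below 0 (4 above with library totals; median 0.02 beside −0.014), and in PreIR-NTN against NonIR, 2 were above and 7 below 0 (median −0.10 beside 0.0029). The 95% interval stayed within a 2-fold change either way for 8, 9 and 9 of the 9 genes in these comparisons. The interval that reached past a 2-fold change was that of Cldn4 in PreIR-GFP against NonIR, with a bound of −1.05. That of Cldn3 in PreIR-NTN against PreIR-GFP stayed barely inside, with a bound of 0.996 beside a limit of 1. The intervals were not adjusted for the number of genes and were not computed for other settings. In bulk tissue, fewer cells of a type and less RNA per cell cannot be told apart.

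**Figure D2:**
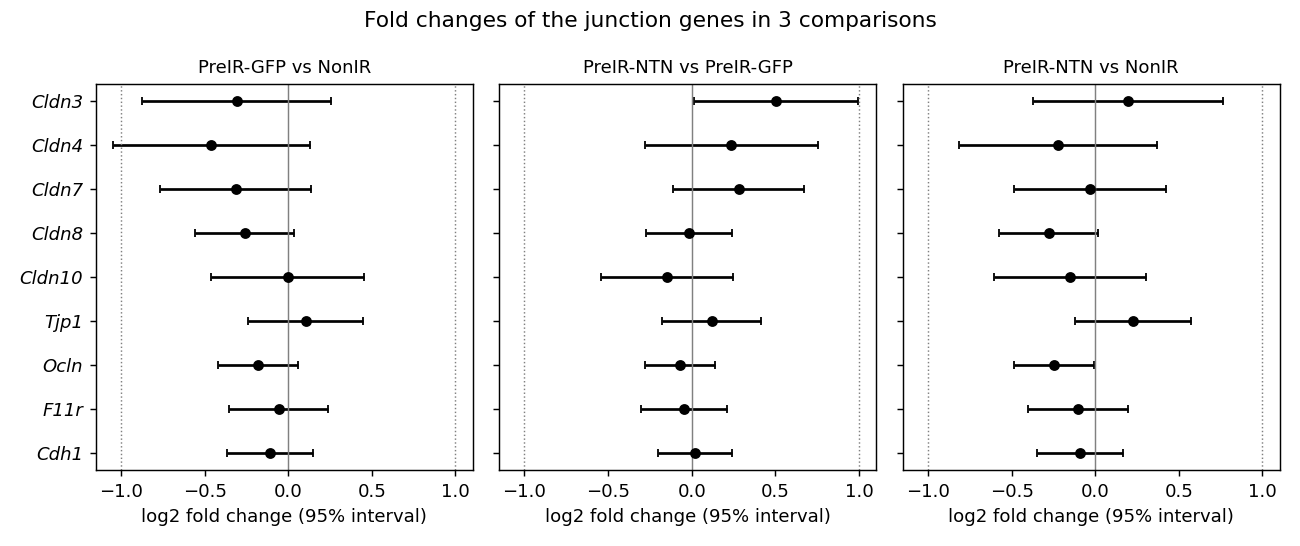
Log2 fold change (x axis) of each junction gene (rows) in 3 comparisons, from the edgeR fit over all genes; points are estimates, bars their 95% intervals, and dotted lines mark a 2-fold change. All intervals but those of Cldn3 in PreIR-NTN against PreIR-GFP and Ocln in PreIR-NTN against NonIR include 0, and neither of these passed the adjusted test.

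Among the barrier-forming claudins, Cldn3 came closest to a difference between the vector groups. Cldn3 (ENSMUSG00000070473, chr5:134986214-134987472, plus strand) encodes a sealing claudin that, with its relative Cldn4, is a receptor for Clostridium perfringens enterotoxin. Cldn3 stood at 102, 59.0, 66.6, 66.4 and 70.7 CPM in PreIR-NTN 1 to 5, 37.8, 49.0, 59.0, 66.8 and 44.3 CPM in PreIR-GFP 1 to 5 and 35.1, 66.5 and 89.4 CPM in NonIR 1 to 3. PreIR-NTN 1 was the highest of all, NonIR 1 the lowest, and the groups overlapped. Group levels were 72.9 ± 16.6 CPM in PreIR-NTN, 51.4 ± 11.6 CPM in PreIR-GFP and 63.7 ± 27.3 CPM in NonIR (SD, n = 5, 5 and 3). For Cldn3, the log2 fold change was −0.31 (SE 0.263, 95% interval −0.87 to 0.25) in PreIR-GFP against NonIR, 0.50 (SE 0.23, 95% interval 0.013 to 0.996) in PreIR-NTN against PreIR-GFP and 0.20 (SE 0.266, 95% interval −0.37 to 0.76) in PreIR-NTN against NonIR, with edgeR adjusted p of 0.811 to 0.901. The unadjusted p of PreIR-NTN against PreIR-GFP was 0.045, and an exact two-sided permutation test gave 0.0476 (adjusted over 27 tests 0.429). Without PreIR-NTN 1 this log2 fold change was 0.36. Scaled by library totals alone, the PreIR-NTN libraries (59.6 to 92.1 CPM) lay just above the PreIR-GFP libraries (45.2 to 59.1 CPM). With DESeq2 size factors and upper-quartile scaling the groups overlapped, as with TMM. The share of all genes without overlap was not counted for library totals, and with TMM it was 1.11%. The annotation places 40 bp of an antisense gene, Wbscr25, on Cldn3 exons, and reads of the pair cannot be told apart there without strand; no other junction gene's exons overlapped another annotated gene.

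Cldn4 (ENSMUSG00000047501, chr5:134945119-134946934, minus strand) is a barrier claudin whose gene lies 39280 bp from Cldn3. Cldn4 levels were 73.9, 71.6, 67.5, 50.6 and 49.1 CPM in PreIR-NTN 1 to 5, 53.2, 45.7, 27.4, 53.9 and 85.2 CPM in PreIR-GFP 1 to 5 and 56.2, 76.2 and 86.6 CPM in NonIR 1 to 3. PreIR-GFP held both the lowest library (replicate 3) and the second highest (replicate 5), and its range covered all PreIR-NTN libraries. Group levels were 62.5 ± 11.8 CPM in PreIR-NTN, 53.1 ± 20.9 CPM in PreIR-GFP and 73.0 ± 15.5 CPM in NonIR. For Cldn4, the log2 fold change was −0.46 (SE 0.275, 95% interval −1.05 to 0.13) in PreIR-GFP against NonIR, 0.24 (SE 0.241, 95% interval −0.28 to 0.75) in PreIR-NTN against PreIR-GFP and −0.22 (SE 0.276, 95% interval −0.81 to 0.37) in PreIR-NTN against NonIR, with edgeR adjusted p of 0.695 to 0.978.

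Cldn7 (ENSMUSG00000018569, chr11:69964779-69967885, plus strand), a claudin also found along the basolateral membrane of epithelial cells, ran at 75.4, 42.5, 53.8, 41.5 and 56.2 CPM in PreIR-NTN 1 to 5, 37.1, 41.0, 45.8, 56.5 and 41.4 CPM in PreIR-GFP 1 to 5 and 40.2, 52.7 and 72.5 CPM in NonIR 1 to 3. Its highest libraries, PreIR-NTN 1 and NonIR 3, were also the highest for Cldn3. Group levels were 53.9 ± 13.7 CPM in PreIR-NTN, 44.4 ± 7.45 CPM in PreIR-GFP and 55.1 ± 16.3 CPM in NonIR, and the groups overlapped in every comparison. For Cldn7, the log2 fold change was −0.31 (SE 0.213, 95% interval −0.76 to 0.14) in PreIR-GFP against NonIR, 0.28 (SE 0.186, 95% interval −0.11 to 0.67) in PreIR-NTN against PreIR-GFP and −0.033 (SE 0.214, 95% interval −0.49 to 0.42) in PreIR-NTN against NonIR, with edgeR adjusted p of 0.736 to 0.988.

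The windows of 250 bases before the transcript starts of Cldn3, Cldn4 and Cldn7 are shown because Cldn3 and Cldn4 are neighbours on the chromosome and Cldn3 and Cldn7 share their highest libraries. They are RefSeq sequences of GRCm38.p6, written 5′ to 3′ on the gene's strand, with the E-box motifs CACCTG and CAGGTG, reverse complements of each other and known binding letters of the Snail and Zeb repressors, in capitals.
Cldn3 upstream window (chr5:134985964-134986213, plus strand): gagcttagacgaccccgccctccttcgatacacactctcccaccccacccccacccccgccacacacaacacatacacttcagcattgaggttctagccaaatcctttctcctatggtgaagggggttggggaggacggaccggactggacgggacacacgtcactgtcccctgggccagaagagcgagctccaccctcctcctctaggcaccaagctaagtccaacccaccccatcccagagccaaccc
Cldn4 upstream window (chr5:134946935-134947184, minus strand): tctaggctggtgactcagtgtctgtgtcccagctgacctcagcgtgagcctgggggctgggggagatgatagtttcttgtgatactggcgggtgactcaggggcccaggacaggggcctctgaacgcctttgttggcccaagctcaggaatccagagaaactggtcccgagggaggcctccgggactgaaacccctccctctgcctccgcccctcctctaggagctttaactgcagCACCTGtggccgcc
Cldn7 upstream window (chr11:69964529-69964778, plus strand): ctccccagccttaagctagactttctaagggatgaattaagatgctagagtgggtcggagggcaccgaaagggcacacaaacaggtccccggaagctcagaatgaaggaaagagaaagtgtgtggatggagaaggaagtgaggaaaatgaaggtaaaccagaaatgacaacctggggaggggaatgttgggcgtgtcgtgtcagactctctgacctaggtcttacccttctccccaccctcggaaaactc
Cldn4 holds 1 E-box, 14 bases before its start, and the Cldn3 window and this Cldn7 window hold 0. A second listed start of Cldn7 has 2 E-boxes, a second start of Ocln has 2 and the F11r start has 1. Of the 9 genes, 7 matched the table, with 10 starts, of which 4 had an E-box, against 17.2% of 32851 windows of the same length. The windows of the Ocln starts overlap each other, and the difference between these shares was not tested. The GC content was 60.8% for Cldn3, 62% for Cldn4 and 51.2% for Cldn7, beside a median of 52.4% over all windows.

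Cldn8 (ENSMUSG00000050520, chr16:88560828-88563183, minus strand) is a barrier claudin known from the distal nephron and colon. Its libraries read 103, 133, 127, 133 and 107 CPM in PreIR-NTN 1 to 5, 126, 100.4, 131, 117 and 136 CPM in PreIR-GFP 1 to 5 and 159, 154 and 126 CPM in NonIR 1 to 3. NonIR 1 and 2 lay above all irradiated libraries, and NonIR 3 lay among them. Group levels were 121 ± 14.6 CPM in PreIR-NTN, 122 ± 14.1 CPM in PreIR-GFP and 146 ± 17.8 CPM in NonIR. For Cldn8, the log2 fold change was −0.26 (SE 0.139, 95% interval −0.56 to 0.034) in PreIR-GFP against NonIR, −0.018 (SE 0.121, 95% interval −0.28 to 0.24) in PreIR-NTN against PreIR-GFP and −0.28 (SE 0.139, 95% interval −0.57 to 0.015) in PreIR-NTN against NonIR, with edgeR adjusted p of 0.64 to 0.998.

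Cldn10 (ENSMUSG00000022132, chr14:118787908-118875489, plus strand) encodes the pore-forming claudins of the set, whose isoforms let either cations or anions pass. The gene's counts do not separate the isoforms. Cldn10 reached 820.4, 579, 887, 980.4 and 775 CPM in PreIR-NTN 1 to 5, 529.9, 959, 1128, 1063 and 792 CPM in PreIR-GFP 1 to 5 and 757, 947 and 985 CPM in NonIR 1 to 3. PreIR-GFP 1 and PreIR-NTN 2 were the lowest libraries, and PreIR-GFP also held the highest. Group levels were 808 ± 149.7 CPM in PreIR-NTN, 894 ± 240.1 CPM in PreIR-GFP and 896 ± 122 CPM in NonIR. For Cldn10, the log2 fold change was −0.0033 (SE 0.215, 95% interval −0.46 to 0.45) in PreIR-GFP against NonIR, −0.15 (SE 0.186, 95% interval −0.54 to 0.25) in PreIR-NTN against PreIR-GFP and −0.15 (SE 0.214, 95% interval −0.60 to 0.30) in PreIR-NTN against NonIR, with edgeR adjusted p of 0.905 to 0.999. Without PreIR-GFP 1, which was also lowest in acinar and granular tubule markers, the log2 fold change of PreIR-GFP against NonIR was 0.12 and that of PreIR-NTN against PreIR-GFP was −0.26. The part of the acinar share in the Cldn10 level was not tested.

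**Figure D3:**
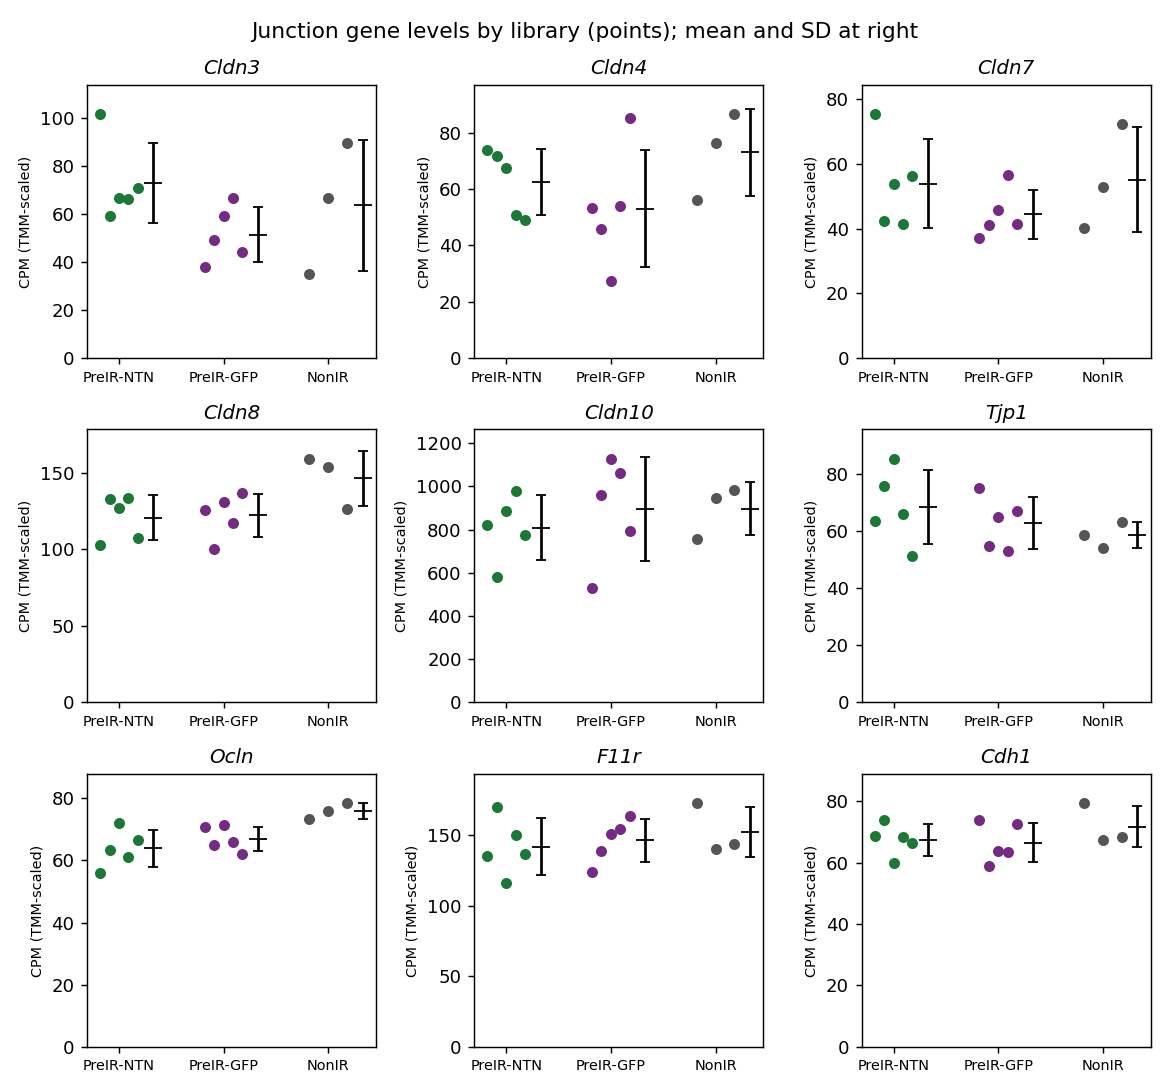
TMM-scaled CPM (y axis, from 0) of the 9 junction genes in each library (points), by group (x axis: PreIR-NTN, PreIR-GFP, NonIR), with the group mean and SD as a bar at right. The groups overlap for every gene except Ocln, where the 3 NonIR libraries lie above all 10 irradiated libraries, an order that library totals do not keep. How many of all genes have this order was not counted.

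Among the other membrane proteins of the tight junction, Ocln was the one gene whose irradiated and NonIR libraries did not overlap. Ocln (ENSMUSG00000021638, chr13:100496507-100552718, minus strand) encodes occludin, a membrane protein that helps to organise the strands. Ocln was at 56.1, 63.4, 72.1, 61.3 and 66.5 CPM in PreIR-NTN 1 to 5, 70.6, 64.9, 71.3, 66.0 and 62.1 CPM in PreIR-GFP 1 to 5 and 73.3, 75.8 and 78.4 CPM in NonIR 1 to 3. All irradiated libraries were below all NonIR libraries, by a small margin. Group levels were 63.9 ± 5.97 CPM in PreIR-NTN, 67.0 ± 3.93 CPM in PreIR-GFP and 75.8 ± 2.58 CPM in NonIR. For Ocln, the log2 fold change was −0.18 (SE 0.113, 95% interval −0.42 to 0.061) in PreIR-GFP against NonIR, −0.068 (SE 0.0987, 95% interval −0.28 to 0.14) in PreIR-NTN against PreIR-GFP and −0.25 (SE 0.113, 95% interval −0.49 to −0.0077) in PreIR-NTN against NonIR, with edgeR adjusted p of 0.652 to 0.995. The unadjusted edgeR p for PreIR-NTN against NonIR was 0.0438. An exact two-sided permutation test gave 0.0357 for PreIR-GFP against NonIR and 0.0357 for PreIR-NTN against NonIR (both 0.429 after adjustment over 27 tests). With 5 against 3 libraries, 0.0357 is the smallest p this two-sided test can give, so a single gene could not pass the adjustment. Over all genes tested, 2.27% had PreIR-GFP libraries wholly below NonIR and 3.3% had PreIR-NTN libraries wholly below NonIR. Both shares rest on the same NonIR libraries, and the share of genes with both groups below NonIR was not counted. DESeq2 size factors and upper-quartile scaling kept the groups apart only narrowly. With upper-quartile scaling the highest PreIR-GFP library was at 74.57 CPM and the lowest NonIR library at 74.59 CPM. With DESeq2 size factors the highest PreIR-NTN library was at 72.6 CPM and the lowest NonIR library at 72.9 CPM. With library totals PreIR-GFP (54.7 to 100.2 CPM) and PreIR-NTN (50.9 to 77.4 CPM) overlapped NonIR (70.9 to 77.9 CPM).

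F11r (ENSMUSG00000038235, chr1:171437535-171464603, plus strand) encodes junctional adhesion molecule A, which is also made by endothelial cells, leukocytes and platelets. F11r read 135, 170.1, 116, 150.3 and 137 CPM in PreIR-NTN 1 to 5, 124, 139, 151, 154 and 163 CPM in PreIR-GFP 1 to 5 and 173, 140.1 and 144 CPM in NonIR 1 to 3. The ranges of all groups overlapped, and PreIR-NTN held both the second highest and the lowest library. Group levels were 142 ± 20.1 CPM in PreIR-NTN, 146 ± 15.1 CPM in PreIR-GFP and 152 ± 17.7 CPM in NonIR. For F11r, the log2 fold change was −0.058 (SE 0.14, 95% interval −0.36 to 0.24) in PreIR-GFP against NonIR, −0.045 (SE 0.122, 95% interval −0.30 to 0.21) in PreIR-NTN against PreIR-GFP and −0.10 (SE 0.14, 95% interval −0.40 to 0.19) in PreIR-NTN against NonIR, with edgeR adjusted p of 0.9 to 0.998. Endothelial markers summed to 49.7 to 72.8 CPM in PreIR-NTN, 52.3 to 78.1 CPM in PreIR-GFP and 62.8 to 69.3 CPM in NonIR.

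Tjp1 (ENSMUSG00000030516, chr7:65296165-65527781, minus strand), the ZO-1 scaffold, was the one gene with a positive log2 fold change in all 3 comparisons. Tjp1 measured 63.8, 75.8, 85.5, 66.2 and 51.4 CPM in PreIR-NTN 1 to 5, 75.3, 54.8, 65.1, 53.3 and 67.1 CPM in PreIR-GFP 1 to 5 and 58.6, 54.2 and 63.2 CPM in NonIR 1 to 3. The PreIR-NTN libraries spread on both sides of the NonIR range. Group levels were 68.5 ± 12.9 CPM in PreIR-NTN, 63.1 ± 9.12 CPM in PreIR-GFP and 58.7 ± 4.49 CPM in NonIR. For Tjp1, the log2 fold change was 0.11 (SE 0.162, 95% interval −0.24 to 0.45) in PreIR-GFP against NonIR, 0.12 (SE 0.14, 95% interval −0.18 to 0.42) in PreIR-NTN against PreIR-GFP and 0.22 (SE 0.163, 95% interval −0.12 to 0.57) in PreIR-NTN against NonIR, with edgeR adjusted p of 0.802 to 0.987.

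Cdh1 (ENSMUSG00000000303, chr8:106603351-106670246, plus strand) encodes E-cadherin, the adhesion protein of the adherens junction, and had the smallest spread of the 9 genes with TMM, though not with library totals. Cdh1 counted 68.5, 73.9, 59.8, 68.4 and 66.3 CPM in PreIR-NTN 1 to 5, 73.7, 58.8, 64.0, 63.5 and 72.5 CPM in PreIR-GFP 1 to 5 and 79.4, 67.3 and 68.2 CPM in NonIR 1 to 3. NonIR 1 was highest and PreIR-GFP 2 lowest, with all groups overlapping. Group levels were 67.4 ± 5.09 CPM in PreIR-NTN, 66.5 ± 6.39 CPM in PreIR-GFP and 71.7 ± 6.71 CPM in NonIR. For Cdh1, the log2 fold change was −0.11 (SE 0.121, 95% interval −0.37 to 0.15) in PreIR-GFP against NonIR, 0.02 (SE 0.105, 95% interval −0.20 to 0.24) in PreIR-NTN against PreIR-GFP and −0.088 (SE 0.121, 95% interval −0.35 to 0.17) in PreIR-NTN against NonIR, with edgeR adjusted p of 0.859 to 0.998.

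Set against Cdh1 within each library, which needs no scaling, none of the other genes passed the test either. Across 8 ratios in 3 comparisons (24 exact two-sided permutation tests), the lowest adjusted p was 0.857. The smallest p this test can give is 0.0357 against NonIR and 0.00794 in PreIR-NTN against PreIR-GFP. A single ratio could therefore not pass after adjustment over 24 tests, and the absence of passing ratios decides little. The log2 ratio of Cldn3 to Cdh1 averaged 0.09 ± 0.325 in PreIR-NTN and −0.40 ± 0.43 in PreIR-GFP libraries (SD, n = 5 each), a difference of 0.49 (exact permutation p = 0.0794). The ratio of Tjp1 to Cdh1 averaged −0.082 ± 0.116 in PreIR-GFP and −0.29 ± 0.164 in NonIR libraries, a difference of 0.21 (exact permutation p = 0.0714). These were the smallest unadjusted p-values of the family.

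Within groups, Cldn3 and Cldn7, whose upstream windows are printed above, varied together from library to library. After subtracting group means from log2 CPM, Cldn3 and Cldn7 correlated with Pearson's r = 0.906 (permutation p = 3e-05, adjusted over 36 pairs 0.00108) and Spearman's rho = 0.901 (permutation p = 6e-05, adjusted 0.00216) over 13 libraries. Without NonIR 1 and NonIR 3, the libraries farthest from the median of Cldn3, r was 0.876. With library totals, DESeq2 size factors or upper-quartile scaling in place of TMM, r was 0.822, 0.9 and 0.88. The log2 ratio of Cldn3 to Cldn7 ran from −0.19 to 0.68 (SD 0.215). Cldn3 and Cldn4 correlated with r = 0.115 (permutation p = 0.714, adjusted 0.857) and rho = 0.187 (permutation p = 0.544, adjusted 0.753), and r was −0.187 without the same libraries. The difference between these correlations was not tested.

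The tie between Cldn3 and Cldn7 was not exclusive to junction genes. Without removal of group means their r was 0.888, and 25 of 6762 genes of at least 10 CPM correlated more closely with Cldn3, as did 4 with Cldn7. All libraries share the scaling and the tissue make-up in such correlations.

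A second pair, Cldn10 and Cdh1, had a negative correlation that did not pass the adjustment. Their r was −0.737 (permutation p = 0.00307, adjusted 0.0553) and rho −0.692 (permutation p = 0.0112, adjusted 0.201). It was −0.601 without PreIR-GFP 1 and PreIR-NTN 2, the libraries farthest from the median of Cldn10, and −0.289, −0.787 and −0.849 with library totals, DESeq2 size factors and upper-quartile scaling. Of the 36 pairs, 1 passed the adjusted test.

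**Figure D4:**
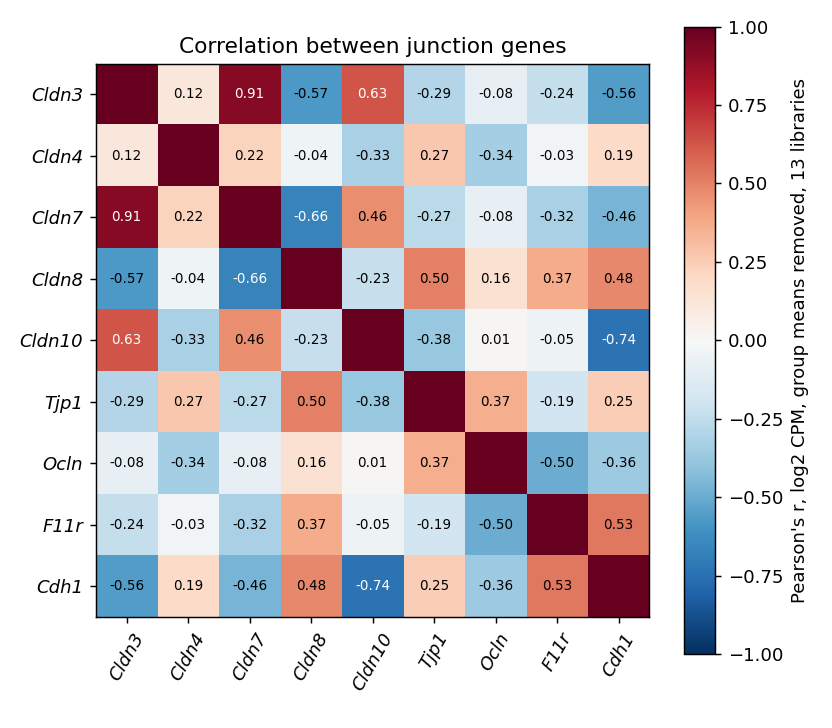
Pearson's r (colour and printed value, blue negative and red positive) between the junction genes over 13 libraries, on log2 CPM with group means removed. The Cldn3 and Cldn7 cell is the darkest red, and the Cldn10 and Cdh1 cell the darkest blue.

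**Figure D5:**
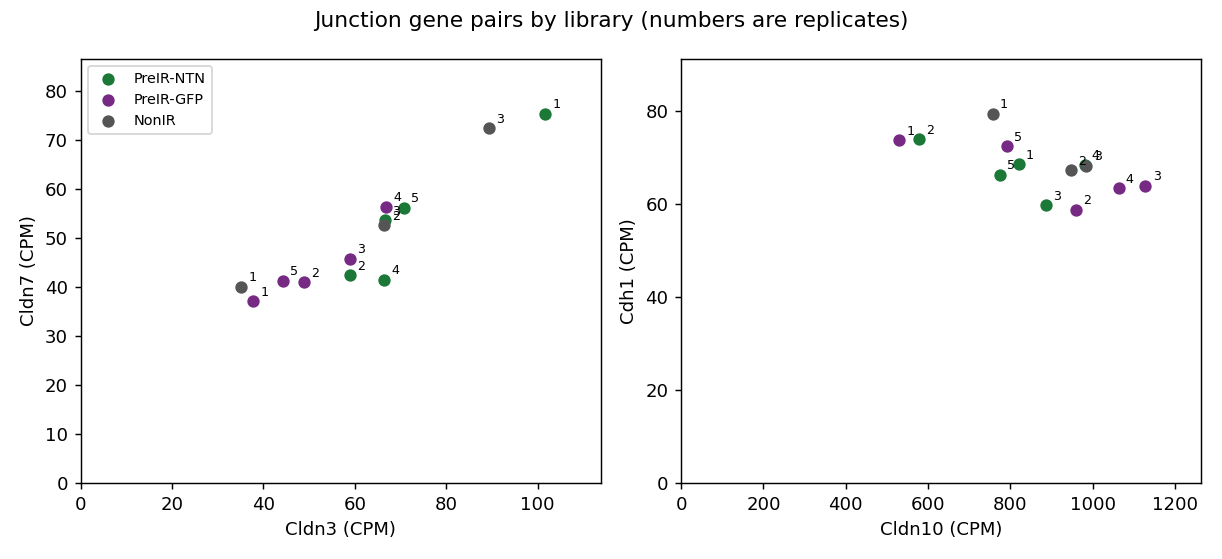
Level of Cldn7 against Cldn3 (left) and of Cdh1 against Cldn10 (right) in CPM from 0, 1 point a library, coloured by group and numbered by replicate. Cldn7 climbs with Cldn3 through all 3 groups, with PreIR-NTN 1 at the top and PreIR-GFP 1 and NonIR 1 at the bottom, while Cdh1 tends to be lower where Cldn10 is higher, a relation whose r was −0.289 with library totals, −0.787 with DESeq2 size factors and −0.849 with upper-quartile scaling.

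Outside the junction genes, the genes whose levels followed each of them most closely over the 13 libraries are given as a description, with Pearson's r of log2 CPM among 6754 genes. For Cldn3 they were Wasf2 (0.959), Rangap1 (0.956) and Eif1 (0.953), and for Cldn7 Mrpl12 (0.916), Nfic (0.896) and Cfl1 (0.895). Cldn4 was closest to Nsfl1c (0.895), Pja1 (0.88) and Dclre1a (0.87), and Cldn8 to Rnf141 (0.921), Aktip (0.887) and Cab39l (0.881). Cldn10 was closest to Hsd17b10 (0.966), BC064078 (0.966) and Guk1 (0.965), the tightest of the sets. Ocln followed Tceanc2 (0.907), Mrpl1 (0.887) and Kpna1 (0.875), F11r Psap (0.938), Ctnnbl1 (0.92) and Anxa6 (0.92), Tjp1 Crk (0.869), Clock (0.867) and Rab11fip1 (0.859) and Cdh1 Ap5m1 (0.867), Sptan1 (0.843) and Mcm7 (0.829).

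The rest of the junction machinery also gave no calls. In the order PreIR-GFP against NonIR, PreIR-NTN against PreIR-GFP and PreIR-NTN against NonIR, edgeR called 0.034%, 0.0204% and 0.0136% of all genes. The absence of calls is thus no result particular to these lists. Over all genes, 8.51%, 5.79% and 7.65% had an unadjusted p under 0.05, the shares to set beside the unadjusted counts of each list. The counts below give log2 fold changes above and below 0 and their median. In 6 lists of related genes, edgeR called 0 genes in either direction in each of the 3 comparisons, and DESeq2, limma-voom and limma on the deposited values also called 0. Among other tight junction genes, 24 of 27 listed symbols were tested, with 13 above and 11 below 0, median 0.0092 in PreIR-GFP against NonIR, 12 above and 12 below 0, median 0.0071 in PreIR-NTN against PreIR-GFP, and 10 above and 14 below 0, median −0.032 in PreIR-NTN against NonIR; 4, 1 and 2 of them had an unadjusted p under 0.05 in these comparisons. Ybx3, a DNA-binding protein that associates with ZO-1, averaged 26.7 ± 7.60 CPM in PreIR-NTN and 16.6 ± 2.57 CPM in NonIR libraries (log2 fold change 0.69, edgeR adjusted p = 0.521). Ildr1, a protein of the corners where 3 cells meet, averaged 26.6 ± 3.55 CPM in PreIR-NTN and 20.1 ± 3.34 CPM in PreIR-GFP libraries (log2 fold change 0.41, edgeR adjusted p = 0.729). Among the lowest p-values in this list were those of Ybx3 (0.62), Magi3 (0.52) and Ildr1 (−0.38) in PreIR-GFP against NonIR, of Ildr1 (0.41) and Patj (−0.17) in PreIR-NTN against PreIR-GFP, and of Ybx3 (0.69), Magi2 (1.40) and Magi3 (0.38) in PreIR-NTN against NonIR, with log2 fold changes in brackets.

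Among the other claudins, 5 of 22 listed symbols were tested. In PreIR-GFP against NonIR there were 1 above and 4 below 0, median −0.25, in PreIR-NTN against PreIR-GFP 4 above and 1 below 0, median 0.44, and in PreIR-NTN against NonIR 3 above and 2 below 0, median 0.076, and 0, 0 and 0 had an unadjusted p under 0.05. Cldn1, the most abundant of those named, averaged 13.3 ± 1.52 CPM in PreIR-GFP and 16.5 ± 3.50 CPM in NonIR libraries (log2 fold change −0.32, edgeR adjusted p = 0.629). Named by their p-values beside it were Cldn23 (−0.38) and Cldn5 (−0.25) in PreIR-GFP against NonIR, Cldn23 (0.45), Cldn2 (0.63) and Cldn5 (0.44) in PreIR-NTN against PreIR-GFP and Cldn2 (0.67) and Cldn12 (−0.24) in PreIR-NTN against NonIR. Cldn5, the endothelial claudin, was under 1 CPM on average in each group.

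Of the other adherens junction genes, 14 of 21 listed symbols were tested, with 5 above and 9 below 0, median −0.022 in PreIR-GFP against NonIR, 6 above and 8 below 0, median −0.022 in PreIR-NTN against PreIR-GFP, and 6 above and 8 below 0, median −0.028 in PreIR-NTN against NonIR; 2, 0 and 1 had an unadjusted p under 0.05. Afdn, the afadin scaffold that binds nectins, averaged 29.6 ± 1.77 CPM in PreIR-NTN and 23.4 ± 2.13 CPM in NonIR libraries (log2 fold change 0.34, edgeR adjusted p = 0.564). Those with the lowest p-values were Nectin4 (−0.41), Afdn (0.30) and Nectin3 (0.40) in PreIR-GFP against NonIR, Nectin4 (0.30), Jup (0.35) and Cdh11 (−0.58) in PreIR-NTN against PreIR-GFP and Afdn (0.34), Epcam (0.22) and Nectin3 (0.37) in PreIR-NTN against NonIR.

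Desmosomes, which anchor keratin filaments, were represented by 11 tested of 14 listed genes, with 6 above and 5 below 0, median 0.18 in PreIR-GFP against NonIR, 6 above and 5 below 0, median 0.10 in PreIR-NTN against PreIR-GFP, and 8 above and 3 below 0, median 0.16 in PreIR-NTN against NonIR; 4, 2 and 1 had an unadjusted p under 0.05. Pkp4, an armadillo protein of cell contacts, averaged 572 ± 34.8 CPM in PreIR-GFP and 432 ± 19.3 CPM in NonIR libraries (log2 fold change 0.41, edgeR adjusted p = 0.348). Lowest p-values fell to Pkp4 (0.41), Ppl (0.51) and Perp (−0.34) in PreIR-GFP against NonIR, Pkp2 (0.49), Dsc3 (−0.55) and Pkp3 (0.57) in PreIR-NTN against PreIR-GFP and Ppl (0.61), Pkp4 (0.21) and Pkp2 (0.32) in PreIR-NTN against NonIR.

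For gap junctions, the channels between neighbouring cells, 7 of 17 listed symbols were tested, with 3 above and 4 below 0, median −0.10 in PreIR-GFP against NonIR, 2 above and 5 below 0, median −0.049 in PreIR-NTN against PreIR-GFP, and 0 above and 7 below 0, median −0.24 in PreIR-NTN against NonIR; 1, 1 and 0 had an unadjusted p under 0.05. Gjb1, a connexin of secretory acini, averaged 67.5 ± 12.99 CPM in PreIR-GFP and 93.3 ± 5.73 CPM in NonIR libraries (log2 fold change −0.47, edgeR adjusted p = 0.48). Gene by gene, the lowest p-values included those of Gjb1 (−0.47), Gjb2 (−0.32) and Gja5 (−0.44) in PreIR-GFP against NonIR, Gjc1 (−0.86) and Gjb1 (0.22) in PreIR-NTN against PreIR-GFP and Gjc1 (−0.64), Gjb2 (−0.32) and Gjb1 (−0.24) in PreIR-NTN against NonIR.

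Factors that regulate junction genes were tested for 16 of 19 listed symbols, with 7 above and 9 below 0, median −0.015 in PreIR-GFP against NonIR, 7 above and 9 below 0, median −0.034 in PreIR-NTN against PreIR-GFP, and 6 above and 10 below 0, median −0.099 in PreIR-NTN against NonIR; 1, 1 and 1 had an unadjusted p under 0.05. Zeb2, a repressor of Cdh1 that immune and stromal cells also express, averaged 3.64 ± 2.84 CPM in PreIR-GFP and 1.43 ± 0.572 CPM in NonIR libraries (log2 fold change 1.32, edgeR adjusted p = 0.484), where macrophage markers summed to 106 to 196 CPM in PreIR-GFP and 97.2 to 112 CPM in NonIR libraries. The part of these cells in the Zeb2 level was not tested. Apart from it, the named factors were Ehf (−0.22) and Snai2 (0.51) in PreIR-GFP against NonIR, Zeb2 (−1.02), Grhl1 (0.23) and Esrp1 (−0.14) in PreIR-NTN against PreIR-GFP and Ovol2 (0.54), Snai1 (−0.88) and Snai2 (0.56) in PreIR-NTN against NonIR.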

How the data were processed

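RNA-seq of 13 submandibular gland libraries was used as deposited. Per the labels' protocols, full-length cDNA was made with SMART-Seq v4, libraries with Nextera XT, and sequenced on a NextSeq 500; the series' design text describes another instrument and aligners, and the sample labels were followed. The submitters' processing notes name STAR 2.5.2a, genome builds GRCm38.p3 and mm10, and DESeq2, edgeR and limma; no source used here gives the counting tool. The authors deposited raw read counts for 48709 genes and 24 other entries, which were left out of library sizes and tests, and a table of TMM-scaled signal values for 17956 genes. All of these signal values (100%) came out as whole reads within 0.01 read and equal to the counts, so the count test on the recovered reads gives the same calls.

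edgeR 4.0.16 (R 4.3.3) was fitted to the counts of all 13 libraries with TMM factors, a filter on low counts by group and the robust quasi-likelihood test; p-values were adjusted over 14727 genes by Benjamini-Hochberg, with a threshold of 0.05. CPM are TMM-scaled with a prior count of 2 on the log2 scale. Per-length levels divide by merged exon length (GENCODE vM21, GRCm38). Exact permutation tests and correlations (100000 permutations) used scipy 1.17.1. The test was checked on simulated counts of PreIR-GFP against NonIR, with a dispersion of 0.07 for every gene. It recovered 39 of 100 genes changed 2-fold and 93 of 100 changed 4-fold, drawn at random from the filtered genes, with 4 false calls. At that dispersion, and over genes of all levels, many 2-fold changes can thus be missed. The spreads of the junction genes themselves were not simulated. The alternatives were DESeq2 1.42.0, limma 3.58.1, other scalings, no filter, 2 groups only, a replicate block and leaving out libraries. The genes and lists were chosen with earlier results of these data known. Named genes are the 9 junction genes, list genes that passed the test or had the 3 lowest p-values in a comparison, and the 3 genes most like each junction gene. Some genes this rule names are not reported here. Read depth limits precision through the 9724301 to 16771003 reads per library.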

Additional observations from a re-analysis of the deposited data

Results flagged for a closer look

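Cldn3 in PreIR-NTN 1 was 102 CPM, the highest of the 5 PreIR-NTN libraries, and stood apart from the other 4: its gap to the nearest library was 0.724 of the group's range, beyond the critical value of 0.71. It was 1 of 18 gene and group sets of 5 libraries tested in this way, and chance flags about 1 in 20. Cldn7 was also highest in PreIR-NTN 1 among the PreIR-NTN libraries, at 75.4 CPM. Without that library the log2 fold change of Cldn3 in PreIR-NTN against PreIR-GFP was 0.36, against 0.50 with it, and neither passed the adjusted test.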

How the results depend on the processing

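The call that 0 of 9 junction genes passed in each comparison held in all 75 alternatives (25 settings in 3 comparisons). Counts over all genes, given for PreIR-GFP against NonIR, PreIR-NTN against PreIR-GFP and PreIR-NTN against NonIR, moved with the setting: 5, 3 and 2 as reported, 0, 3 and 2 with DESeq2 size factors in edgeR, 0, 4 and 1 with upper-quartile scaling, 73, 38 and 31 with the DESeq2 test, 0, 0 and 1 with limma-voom, 0, 3 and 3 with limma on the deposited values at either pseudocount (1 or 0.25), 25, 20 and 11 with no filter, 0, 0 and 1 with 2 groups only, 0, 0 and 0 with library totals and 2, 2 and 1 without PreIR-GFP 1 and 2. Unadjusted p under 0.05 held for 1241, 869 and 1142 genes with DESeq2 size factors, 1208, 844 and 1047 with upper-quartile scaling, 1143, 833 and 1076 with limma-voom, 974, 785 and 1218 with 2 groups only and 746, 543 and 459 with library totals. Leaving out 1 library gave 0 to 14, 0 to 9 and 0 to 2 genes. Library totals moved the median of all genes to 0.13, −0.098 and 0.026. The causes were not tested.

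Replicate numbers gave no common sign of pairing, which was not tested. Deviations from group means were correlated between libraries. Libraries of the same number gave 0.0631 to 0.279 (mean 0.196) between PreIR-GFP and NonIR. They gave −0.428 to 0.214 (mean −0.204) between PreIR-NTN and PreIR-GFP and −0.276 to −0.154 (mean −0.219) between PreIR-NTN and NonIR. Libraries of different numbers averaged −0.049, 0.052 and 0.055 in the same order. Not every library correlated best with one of its own number. With the replicate block, 1, 0 and 0 genes and 0, 0 and 0 junction genes were called, and 1028, 663 and 835 genes had an unadjusted p under 0.05.

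With library totals, log2 fold changes changed sign for Cldn10 (0.046), F11r (0.038) and Cdh1 (0.024) in PreIR-GFP against NonIR and Cdh1 (−0.095) in PreIR-NTN against PreIR-GFP. Without PreIR-GFP 1 and 2, log2 fold changes changed sign for Cldn10 (0.12) and F11r (0.015) in PreIR-GFP against NonIR. Log2 ratios with Epcam in place of Cdh1 changed sign for Cldn7 (−0.25) and Tjp1 (−0.015) in PreIR-NTN against NonIR, Cldn10 (−0.14), Tjp1 (−0.0032) and F11r (−0.16) in PreIR-GFP against NonIR and Tjp1 (−0.012) in PreIR-NTN against PreIR-GFP. Leaving out 1 library, log2 fold changes ranged over both signs for Cldn3 ((−0.59 to 0.013, sign changed without NonIR 3)), Cldn10 ((−0.10 to 0.12, sign changed without NonIR 2, NonIR 3, PreIR-GFP 1 and PreIR-GFP 5)) and F11r ((−0.12 to 0.056, sign changed without NonIR 1)) in PreIR-GFP against NonIR, Cldn8 ((−0.081 to 0.045, sign changed without PreIR-GFP 1, PreIR-GFP 3, PreIR-GFP 5, PreIR-NTN 1 and PreIR-NTN 5)), F11r ((−0.089 to 0.019, sign changed without PreIR-GFP 5 and PreIR-NTN 3)) and Cdh1 ((−0.021 to 0.082, sign changed without PreIR-GFP 2)) in PreIR-NTN against PreIR-GFP and Cldn3 ((−0.076 to 0.52, sign changed without NonIR 1)), Cldn7 ((−0.19 to 0.21, sign changed without NonIR 3, PreIR-NTN 2 and PreIR-NTN 4)), F11r ((−0.16 to 0.012, sign changed without NonIR 1)) and Cdh1 ((−0.13 to 0.0082, sign changed without NonIR 1)) in PreIR-NTN against NonIR. Log2 ratios to Cdh1 did so for Cldn3 ((−0.58 to 0.20, sign changed without NonIR 3 and PreIR-GFP 1)), Cldn7 ((−0.46 to 0.074, sign changed without NonIR 3)) and Cldn10 ((−0.13 to 0.28, sign changed without NonIR 1, PreIR-GFP 2, PreIR-GFP 3 and PreIR-GFP 4)) in PreIR-GFP against NonIR, Cldn3 ((−0.096 to 0.69, sign changed without NonIR 1)), Cldn4 ((−0.39 to 0.034, sign changed without NonIR 3)), Cldn7 ((−0.22 to 0.31, sign changed without NonIR 1 and PreIR-NTN 1)), Cldn10 ((−0.27 to 0.075, sign changed without NonIR 2, NonIR 3 and PreIR-NTN 2)) and F11r ((−0.056 to 0.0064, sign changed without PreIR-NTN 3)) in PreIR-NTN against NonIR and Cldn8 ((−0.10 to 0.022, sign changed without PreIR-NTN 1)), Cldn10 ((−0.36 to 0.0089, sign changed without PreIR-NTN 2)) and Tjp1 ((−0.039 to 0.18, sign changed without PreIR-NTN 3)) in PreIR-NTN against PreIR-GFP. In all, 649 of 675 fold changes and 208 of 232 ratios kept their sign, and none of these gene values passed the threshold in any setting; 1182 of 1200 list counts were unchanged within 1.5 times. Recovered reads, library totals, the scaling of overlaps, spreads and correlations, and the acinar sum without Smgc were added after seeing the data.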
